A study of Homo sapiens with 8 samples.

Results

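The guides described here are the single guide RNAs (sgRNAs) that target the SOX genes in a genome-wide CRISPR knockout screen. They were taken as all guides whose target symbol is SOX followed by a number, which gave 114 guides of 119461 in the library. These guides target 19 genes, each with 6 guides, 3 from part A and 3 from part B of the human GeCKOv2 library. The cells were MB157R, a triple-negative breast cancer line selected for resistance to γ-secretase inhibition and stably expressing Cas9. After transduction and puromycin selection the cells were combined into 1 pool, from which 2 aliquots were taken at T0. The remaining cells were grown as 3 cultures with DMSO, the vehicle, and 3 cultures with LY3039478, a γ-secretase inhibitor (GSI), at 10 µM, all for 14 days. All 8 libraries therefore came from 1 resistant line with Cas9, and the screen held no library from the sensitive parental cells.

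SOX proteins are transcription factors that share an HMG box, a domain that binds in the minor groove of its target and bends the DNA. The family is divided into subgroups by sequence, and members of a subgroup often act on the same sites and can stand in for each other. SOX2, a B1 member, maintains pluripotent and neural stem cells together with partner factors such as POU5F1, and it is amplified or highly expressed in several carcinomas. γ-secretase releases the intracellular domain of Notch receptors, so its inhibition lowers Notch signalling. In a pooled knockout screen, a guide that becomes rarer marks cells that were lost relative to the other cells of the pool, and a guide that becomes more frequent marks cells that gained.

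The count tables name the guides without their sequences, so the sites that could be targeted were read from the reference. In the GENCODE annotation of GRCh38, SOX2 (ENSG00000181449.4) lies on chromosome 3 from 181711925 to 181714436 on the plus strand. Its coding sequence of 951 bases lies in 1 exon, as in 8 of the 19 SOX genes. This sequence holds 198 sites of 20 bases followed by NGG, the motif (PAM) that Cas9 from Streptococcus pyogenes needs. Of these sites, 27 (13.6%) also occur with at most 1 mismatch and with a PAM in the coding sequence of another SOX gene, and 19 occur there without a mismatch. All 27 lie between coding bases 117 and 319. SOX1, a further B1 member, holds 25 of them within 1 mismatch and 18 without a mismatch. SOX21 holds 17 and 7, SOX3 holds 11 and 1, and SOX14 holds 10 and 3. SOX6, SOX8, SOX11, SOX12, SOX17 and SOX30 hold none. The 4 sites below are shown because 1 cut site is shared by SOX2 and its nearest paralogues, and for 2 of them 1 version with a mismatch in a paralogue follows. They are candidate sites from the reference and not known members of the library. Capitals mark the PAM.
SOX2, chr3:181712540-181712562, minus strand, without mismatch in SOX1, SOX21 and SOX3: tgtgcatcttggggttctccTGG
SOX14, the same site with C17T: tgtgcatcttggggttttccTGG
SOX2, chr3:181712551-181712573, minus strand, without mismatch in SOX1, SOX14 and SOX21 and with C7G in SOX15: gatctccgagttgtgcatctTGG
SOX2, chr3:181712618-181712640, plus strand, without mismatch in SOX1 and SOX21: gaagcggccgttcatcgacgAGG
SOX2, chr3:181712499-181712521, plus strand, without mismatch in SOX1: gccttcatggtgtggtcccgCGG
SOX3, the same site with G12A, which SOX14 also has: gccttcatggtatggtcccgCGG
Positions of the substitutions are counted from 1 at the 5′ end, with the SOX2 base first. Whether any of the 6 SOX2 guides lies in this shared stretch is not known from the tables.

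The libraries held 12.1 M to 18.2 M counts, with a median count per guide of 66 to 112. The total of GSI replicate 1 was 18.2 M with, and 11.1 M without, its most abundant guide, which lies outside the SOX family. SOX guides at 0 counts numbered 9 and 19 in the T0 libraries, 4, 10 and 5 under DMSO, and 2, 10 and 3 under GSI. Values below are raw counts divided by median-ratio size factors, called normalised counts, and a count of 3 corresponded to 2.38 to 4.04 normalised counts. Guides were amplified by PCR without molecular identifiers, so floors cover counting error only.

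SOX2 guides had low or uneven counts at T0. Of its 6 guides, HGLibA_46251 and HGLibB_46196 were at 0 counts in both T0 libraries. HGLibA_46253 stood at 1.67 and 184 normalised counts in T0 replicates 1 and 2, and HGLibB_46197 at 3.35 and 191. HGLibA_46252 stood at 20.9 and 12.3, and HGLibB_46195 at 30.1 and 13.3. No SOX2 guide was therefore above 13.3 normalised counts in both T0 libraries, while the median over all guides was 92.0 and 87.3. The T0 libraries were over 10-fold apart for HGLibA_46253 and HGLibB_46197, which carried nearly all SOX2 counts of T0 replicate 2.

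Across the family, 6 of 114 guides (5.26%) had 0 counts in both T0 libraries, against 2.21% of all guides. They were 2 guides each of SOX2 and SOX10, HGLibA_46241 of SOX14 and HGLibB_46200 of SOX21. At least 2 of 6 guides were missing from both T0 libraries in 132 of the 18154 genes with 6 guides (0.727%), and among SOX genes in SOX2 and SOX10. A count of 0 in at least 1 T0 library was seen for 22 SOX guides (19.3%), against 14.5% of all guides. Of these 22, SOX3 and SOX12 held 3 each. Under 10 counts in at least 1 T0 library were found for 32 SOX guides (28.1%), against 24.6% of all guides, and 4 of the 32 were SOX2 guides and 4 were SOX8 guides. SOX6, SOX11, SOX13 and SOX30 had no such guide. The T0 libraries were over 10-fold apart for 22 SOX guides (19.3%), close to the 20.1% of all guides. After leaving out guides with a mean raw count under 10 over the 8 libraries, 109 SOX guides could be tested. The 5 guides left out (4.39%, against 2.18% of all guides) were both SOX2 guides missing at T0, HGLibB_46178 of SOX12, HGLibA_46241 of SOX14 and HGLibA_46276 of SOX8. HGLibA_46241 was nearly absent throughout, with 2.69 normalised counts in GSI replicate 1 and 0 in the other 7 libraries.

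The comparison of GSI with DMSO at day 14 asks which knockouts change the growth of resistant cells under Notch inhibition. Guide HGLibA_46252 of SOX2 stood at 125, 86.7 and 92.3 normalised counts in the DMSO cultures and at 56.6, 27.0 and 24.0 in the GSI cultures. All 3 GSI cultures lay below all 3 DMSO cultures. The log2 fold change was -1.50 ± 0.68 (SE, n = 3 and 3). Its unadjusted p was under 0.05, but its adjusted p, like that of every SOX guide in this comparison, was 1.00 (edgeR quasi-likelihood test, Benjamini-Hochberg over all guides). HGLibB_46195 showed a difference of like size, with 49.3, 116 and 85.4 under DMSO and 28.3, 23.0 and 38.6 under GSI. These groups did not overlap either, with a log2 fold change of -1.47 ± 0.75 (SE), which missed an unadjusted p of 0.05.

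The other 4 SOX2 guides did not separate the cultures. HGLibB_46197 stood at 112, 28.9 and 77.5 under DMSO and at 36.4, 5.56 and 81.5 under GSI, with a log2 fold change of -0.82 ± 0.87 (SE). HGLibA_46253 stood at 119, 61.4 and 33.0 under DMSO and at 74.1, 91.4 and 99.2 under GSI, with a log2 fold change of 0.31 ± 0.64 (SE). Both groups overlapped for each of these guides. The untested HGLibA_46251 gave 6.58, 7.22 and 2.28 under DMSO against 2.69, 0 and 17.8 under GSI. The untested HGLibB_46196 gave 11.0, 0 and 4.56 under DMSO against 0, 0.795 and 29.2 under GSI. For both, the highest of all 8 libraries was GSI replicate 3.

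Summed over its 6 guides, SOX2 gave 423, 299.7 and 295 normalised counts under DMSO, or 339 ± 72.6 (SD, n = 3), and 198, 148 and 290.3 under GSI, or 212 ± 72.3 (SD, n = 3). The groups did not overlap, but the highest GSI sum and the lowest DMSO sum were close to each other. Sums below those of every DMSO culture were found for 2 of 19 SOX genes, SOX2 and SOX11, against 5.83% of all 18569 genes tested. No SOX gene had higher sums in all GSI cultures, against 3.75% of all genes. SOX11, a subgroup C factor of progenitor cells, gave 1281, 1172 and 1172 under DMSO and 1009, 993 and 884 under GSI. The median log2 fold change over the SOX11 guides was -0.18.

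The median over the 4 tested SOX2 guides was -1.15 ± 0.85 on the log2 scale (SD over guides), the lowest of the 19 SOX genes. The other 18 medians lay between -0.64 and 0.66, with a median of -0.11, and the median over all genes was -0.02. A median of -1 or less was found for 10 of 18569 genes (0.0539%) and one of 1 or more for 0.339%, among them no SOX gene. Medians of few guides spread more: their SD was 0.418 over the 341 genes with 4 tested guides and 0.297 over all genes. In robust rank aggregation (RRA) of the guide p-values, SOX2 ranked at place 149 on the low side, with an unadjusted p = 0.0079 from the exact null distribution and an adjusted p = 0.96. The study singled out SOX2 from these same libraries, so this p is not independent evidence. The study's own ranking, made with MAGeCK, placed SOX2 near the top of the negatively selected genes. That ranking used another guide test and filter than the ones used here. With no filter on low counts all 6 SOX2 guides entered, the median was -0.26 with an SD over guides of 1.04, and 18.6% of all genes had a median at or below it. The added guides HGLibA_46251 and HGLibB_46196 were at 0.33 ± 1.85 and 0.95 ± 1.91 (SE). In this setting RRA placed SOX2 at 421 of 18595 genes on the low side, with an unadjusted p = 0.0221 from the exact null. With the filter on low counts and so only the 4 tested guides, the place was 7 without GSI replicate 3 (p = 0.00065, exact null). With the same filter and 4 guides, it was 824 without DMSO replicate 1 (p = 0.0438, exact null).

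Within each library, the median log2 level of the 6 SOX2 guides was set against that of the 108 other SOX guides. This difference was -4.66 and -2.77 in the T0 libraries, -0.02, -1.06 and -0.67 in the DMSO cultures, and -1.28, -2.64 and -1.25 in the GSI cultures. SOX2 was thus farthest below its paralogues at T0 and nearest to them under DMSO, although T0 replicate 2 and GSI replicate 2 lay close together. The level of the other SOX guides moved little, from 6.26 to 6.56 over the 8 libraries. The GSI mean lay 1.14 log2 units below the DMSO mean. The values of the GSI and DMSO cultures did not overlap, but DMSO replicate 2 at -1.06 and GSI replicate 3 at -1.25 were close. How many other genes show such a difference was not computed, and SOX2 was singled out from these same libraries. A median of levels is set by the guides of middle abundance. The median log2 fold change over the same 6 guides was -0.26.

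With median-ratio size factors, no guide in the library passed an adjusted p under 0.05 for GSI against DMSO by edgeR, and DESeq2 also called none. With library totals as scale edgeR called 10 guides, none of them against a SOX gene. At an unadjusted p under 0.05, 3 of 109 SOX guides were on the lower side, against 1.46% of all guides, and 2 on the higher side, against 1.55%. The GSI and DMSO cultures did not overlap for 7 SOX guides on the lower side, against 4.36% of all guides, and for 5 on the higher side, against 4.72%. Besides the 2 SOX2 guides, the 7 were 2 guides of SOX9 and 1 each of SOX1, SOX18 and SOX21. Without GSI replicate 1 the counts were 14 and 8, against 9.09% and 9.63% of all guides. The log2 fold change was below 0 for 66 SOX guides (60.6%), against 51.4% of all guides.

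The SOX guide with the lowest p was HGLibB_46198 of SOX21, a subgroup B2 member that acts as a repressor in neural differentiation. It stood at 224, 181 and 99.1 under DMSO and at 90.2, 11.1 and 42.8 under GSI, with a log2 fold change of -1.82 ± 0.66 (SE), and the groups did not overlap. The other SOX21 guides did not share this, and 3 of 6 lay above 0. The gene median was -0.21 ± 0.78 (SD over guides), with an unadjusted p = 0.0369 from the exact null and an adjusted p = 0.97, and it was 0.0888 without GSI replicate 2. HGLibB_46176 of SOX11 followed, at 167, 453 and 326 under DMSO and 124, 172 and 187 under GSI. Its log2 fold change was -0.97 ± 0.42 (SE), and the groups overlapped.

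On the higher side, HGLibA_46245 of SOX17, a factor of endoderm and endothelium, stood at 124, 76.7 and 62.6 under DMSO and at 191, 264 and 148 under GSI. Its log2 fold change was 1.20 ± 0.48 (SE), and the groups did not overlap. HGLibA_46264 of SOX4, a subgroup C factor linked to epithelial-mesenchymal transition, stood at 0, 0 and 44.4 under DMSO and at 56.6, 72.3 and 131 under GSI, with a log2 fold change of 2.55 ± 1.22 (SE) and no overlap. HGLibA_46250 of SOX18, a regulator of lymphatic vessels, stood at 52.6, 52.4 and 112 under DMSO and at 80.8, 166 and 193 under GSI, and the groups overlapped. The unadjusted p was under 0.05 for the guides of SOX17 and SOX4 and not for that of SOX18. The gene medians were -0.06 for SOX17, 0.66 for SOX4 and -0.02 for SOX18. The sign of each changed when single libraries were left out, with ranges from -0.16 to 0.17, from -1.20 to 2.41 and from -0.26 to 0.17.

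By subgroup, the nearest relatives of SOX2 had medians above 0. SOX1 and SOX3, B1 members that act with SOX2 in neural progenitors, had medians of 0.18 ± 0.74 and 0.14 ± 0.42 (SD over guides). For SOX1, 5 of 6 guides lay above 0, and HGLibB_46170 was the exception at -1.34, with 30.7, 61.4 and 117 under DMSO against 28.3, 27.0 and 27.2 under GSI. The B2 members SOX14 and SOX21 had medians of -0.27 and -0.21. In subgroup C, SOX12 had all 5 tested guides below 0 and a median of -0.64 ± 0.41 (SD over guides), the lowest after SOX2. All tested guides were below 0 in 2.21% of genes and above 0 in 1.71%, a pattern no SOX gene showed, and the p of SOX12 from the exact null was 0.54.

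The subgroup D genes SOX5, SOX6 and SOX13, which lack a transactivation domain, had medians of -0.29, -0.29 and -0.23. Of these, SOX5 and SOX6 act with SOX9 in cartilage. The subgroup E genes SOX8, SOX9 and SOX10, known from neural crest and glia, had medians of -0.15, 0.00 and -0.14. SOX7, of subgroup F, had a median of 0.28. SOX15 and SOX30, the latter a factor of spermatogenesis, had medians of -0.08 and 0.13. By RRA, 2 SOX genes had an unadjusted p under 0.05 on the low side, SOX2 and SOX21, against 5.06% of all genes, and none on the high side, against 4.99%. No SOX gene passed an adjusted p under 0.05 on either side in this comparison.

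The comparisons with T0 ask which guides were lost or gained during 14 days of culture, and both rest on the same 2 T0 libraries. For SOX2 these libraries disagreed, with summed normalised counts of 56.1 and 400.5. HGLibA_46252 was above both T0 values in all DMSO and all GSI cultures, with log2 fold changes of 2.60 ± 1.10 (SE, n = 3 and 2) and 1.10 ± 1.32. HGLibB_46195 was above both T0 values in all DMSO cultures, at 1.94 ± 1.18, while its GSI cultures overlapped T0, at 0.46 ± 1.30. HGLibB_46197 gave -0.42 ± 1.34 and -1.24 ± 1.50, and HGLibA_46253 gave -0.38 ± 1.41 and -0.07 ± 1.30, with all groups overlapping.

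Over the 4 tested SOX2 guides, the median log2 fold change was 0.78 ± 1.56 (SD over guides) for DMSO against T0 and 0.20 ± 0.99 for GSI against T0. By this median SOX2 guides were above or near their T0 level in both arms, and the GSI value turned to -0.0056 when libraries were scaled to non-targeting controls. Without T0 replicate 2 the medians were 3.33 and 2.17, and without T0 replicate 1 they were 0.64 and 0.0536. With all 6 guides and no filter they were 2.27 and 0.78. On the high side, the exact null gave p = 0.11 for DMSO and p = 0.66 for GSI, before adjustment.

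With median-ratio size factors, no guide passed an adjusted p under 0.05 against T0 in either arm by edgeR. At an unadjusted p under 0.05, 2 SOX guides were lower and 4 higher in DMSO, against 3.55% and 4.19% of all guides. In GSI, 4 were lower and 5 higher, against 3.99% and 4.72%. The DMSO cultures lay below T0 for 10 SOX guides and above it for 16, against 13.2% and 14.9% of all guides. The GSI cultures lay below T0 for 14 and above it for 14, against 13.6% and 15.7%. The log2 fold change was below 0 for 54 SOX guides in DMSO and 61 in GSI, against 49.9% and 50.8% of all guides. DESeq2 called 5 SOX guides in DMSO and 9 in GSI, against 5.7% and 6.77% of all guides. Without T0 replicate 1, edgeR called 6 in DMSO and 16 in GSI, against 7.13% and 18.1% of all guides. Without T0 replicate 2 it called none in DMSO and 5 in GSI, against 0.0163% and 4.72%. A single T0 library then stood for its group and was assumed to vary like the day 14 cultures.

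SOX4 was the SOX gene with the lowest medians against T0. Its summed normalised counts were 324 and 307 at T0, 147, 26.2 and 154 under DMSO, and 197, 74.7 and 258 under GSI, and neither day 14 group overlapped T0. Sums below T0 were found for 3 SOX genes in DMSO (SOX4, SOX7 and SOX30) and for 2 in GSI (SOX4 and SOX15), against 17.1% and 19.2% of all genes. All 6 SOX4 guides had a log2 fold change below 0 in DMSO, with a median of -1.93 ± 3.22 (SD over guides). All tested guides were below 0 in 2.69% of genes, and a median of -1 or less was found in 4.84%. In GSI, 5 of 6 guides were below 0, no SOX gene had all tested guides below 0 (2.63% of all genes did), and the SOX4 median was -1.44 ± 3.04, where 3.5% of genes had a median of -1 or less. Its unadjusted p was 0.0429 from the exact null, with an adjusted p = 0.86. On the low side, that was the only SOX gene with an unadjusted p under 0.05 in GSI, against 5.69% of all genes, and there was none in DMSO, against 6.12%. After adjustment no SOX gene was called in either arm, against 0.0323% of all genes on the low side in DMSO and none elsewhere.

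Several SOX4 guides were uneven at T0. With only the 4 SOX4 guides at 10 or more counts in each T0 library, the gene medians were -1.43 in DMSO and -1.35 in GSI. HGLibB_46208 stood at 25.1 and 94.9 at T0, at 0 in all 3 DMSO cultures, and at 2.69, 0 and 0 under GSI. It was at least 19.1-fold lower in DMSO, against the level of 3 counts per library, and at least 8.00-fold without T0 replicate 2, with an adjusted p = 0.53 by edgeR. HGLibB_46209 stood at 125 and 0 at T0, at 0, 0.903 and 7.97 under DMSO, and at 1.35, 0 and 2.09 under GSI. HGLibB_46207 stood at 61.1 and 0.949 at T0, at 17.5, 0 and 3.42 under DMSO, and at 4.04, 0 and 59.5 under GSI. The 3 part B guides of SOX4 had medians of -4.37 in DMSO and -5.69 in GSI, against -1.13 and -0.34 for its part A guides. In GSI, HGLibB_46207 of part B stood at -0.55, above HGLibA_46263 of part A at -2.34. Without T0 replicate 1 the gene medians turned to 0.0042 in DMSO and 1.14 in GSI.

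SOX3 lay on the other side, with summed normalised counts of 307 and 296 at T0, 727, 508 and 577 under DMSO, and 757, 665 and 801 under GSI. All 6 SOX3 guides had a log2 fold change above 0 in both arms, with medians of 1.17 ± 0.63 (SD over guides) for DMSO and 1.03 ± 0.58 for GSI. All tested guides were above 0 in 2.13% of genes for DMSO and 2.02% for GSI, comparisons that share the T0 libraries. Medians of 1 or more were found in 4.19% and 3.35% of genes. HGLibA_46259 had the lowest p of these guides. It stood at 43.5 and 86.4 at T0, at 365, 104 and 129 under DMSO, and at 369, 179 and 243 under GSI. Its log2 fold change for GSI against T0 was 2.02 ± 0.60 (SE), with an adjusted p = 0.48 by edgeR. The gene's p on the high side was 0.44 in DMSO and 0.067 in GSI, both from the exact null. HGLibA_46257, HGLibB_46202 and HGLibB_46203 of SOX3 were at 0 in T0 replicate 2 and at 33.5, 61.1 and 51.9 in T0 replicate 1. Without T0 replicate 1 the gene median for GSI against T0 was 4.98.

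SOX10, a factor of neural crest, melanocytes and Schwann cells, had guides that were missing at T0 and present later. HGLibA_46227 stood at 0 in both T0 libraries, at 148, 112 and 6.83 under DMSO, and at 51.2, 19.1 and 58.5 under GSI. Against the level of 3 counts per library it was at least 33.2-fold higher in DMSO and at least 16.0-fold higher in GSI. HGLibB_46173 stood at 0 in both T0 libraries, at 36.2, 46.0 and 20.5 under DMSO, and at 8.08, 24.6 and 45.9 under GSI, at least 12.8-fold and 9.79-fold higher, the latter at least 6.11-fold without GSI replicate 3.

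The remaining 4 SOX10 guides did not share this. HGLibB_46171 stood at 41.0 and 43.7 at T0 and at 1.10, 0 and 26.2 under DMSO. The SOX10 medians were 0.66 ± 4.98 (SD over guides) in DMSO and 0.42 ± 4.30 in GSI. Their unadjusted p on the high side was 0.0148 and 0.0203 from the exact null, with adjusted p = 0.88 in both. No other SOX gene had an unadjusted p under 0.05 on that side, against 5.3% of all genes in DMSO and 5.39% in GSI. Without T0 replicate 2 the GSI median was -0.07.

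HGLibB_46189 of SOX17 was measured well in every library. It stood at 205 and 182 at T0, at 419, 619 and 613 under DMSO, and at 412, 548 and 546 under GSI. The log2 fold change was 1.51 ± 0.43 (SE) in DMSO and 1.37 ± 0.39 in GSI, with adjusted p = 0.52 and adjusted p = 0.48 by edgeR. The summed SOX17 counts of both day 14 groups lay above T0, while the gene medians were -0.39 and 0.20. In DMSO 2 of the 6 SOX17 guides had a log2 fold change above 0, and in GSI 3 did. HGLibA_46246 also lay above T0 in all DMSO cultures, with a mean of 228 against 138. Sums above T0 were found for SOX3 and SOX17 in both arms, against 12.4% of all genes in DMSO and 11.5% in GSI.

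SOX21 guides lay far apart on both sides of T0. HGLibB_46199 stood at 36.0 and 294 at T0, at 1.10, 6.32 and 35.3 under DMSO, and at 2.69, 3.97 and 20.9 under GSI, with log2 fold changes of -3.53 ± 1.43 (SE) and -4.15 ± 1.27. HGLibB_46200 was at 0 in both T0 libraries, at 50.4, 0 and 15.9 under DMSO, and at 22.9, 7.15 and 36.5 under GSI. Its DMSO cultures overlapped T0, and its GSI cultures were at least 8.29-fold higher, or 5.61-fold without GSI replicate 3. HGLibB_46176 of SOX11 stood at 243 and 927 at T0 and at 124, 172 and 187 under GSI, with a log2 fold change of -1.86 ± 0.56 (SE). HGLibB_46188 of SOX15 stood at 343 and 274 at T0 and at 153, 129 and 184 under DMSO, at -0.99 ± 0.50 (SE). Gene medians against T0 were -0.63 for SOX30, -0.20 for SOX15 and 0.71 for SOX14 in DMSO. In GSI they were -0.57 for SOX21 and -0.46 for SOX11.

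The other SOX guides missing from 1 T0 library had day 14 values as follows. HGLibB_46185 of SOX14 stood at 0 and 0.949 at T0, at 47.1, 5.42 and 9.11 under DMSO, and at 29.6, 0 and 13.6 under GSI. HGLibB_46187 of SOX15 stood at 0 and 7.59 at T0, at 8.77 to 35.3 under DMSO, and at 13.5, 0 and 35.5 under GSI. HGLibA_46248 of SOX18 stood at 194 and 0 at T0, at 20.8, 180 and 38.7 under DMSO, and at 68.7, 97.0 and 67.9 under GSI. HGLibB_46169 of SOX1 stood at 132 and 0 at T0 and between 44.5 and 121 in all 6 cultures. HGLibA_46275 of SOX8 stood at 34.3 and 0 at T0 and between 40.7 and 105 in the cultures. HGLibA_46268 of SOX5 stood at 21.8 and 0 at T0 and between 1.59 and 62.6 in the cultures.

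HGLibB_46217 of SOX7 stood at 3.35 and 0 at T0 and between 6.58 and 79.4 in the cultures. HGLibA_46234 and HGLibB_46179 of SOX12 stood at 29.3 and 55.2 in T0 replicate 1 and at 0 in T0 replicate 2, and reached up to 137 and 51.5 at day 14. HGLibA_46247 of SOX17 stood at 58.6 and 0 at T0 and at most at 38.7 at day 14. HGLibA_46276 of SOX8 stood at 17.6 and 0 at T0 and at most at 9.43 at day 14, and HGLibB_46178 of SOX12 stood at 0 and 7.59 and at most at 5.69. Of the 114 SOX guides, 82 had at least 10 counts in both T0 libraries, and 2 of these target SOX2.

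For GSI against DMSO the median log2 fold change was -0.04 over the 54 tested SOX guides of part A and -0.19 over the 55 of part B. Over all gene guides it was 0.03 in part A and -0.08 in part B. For GSI against T0 the SOX medians were 0.10 in part A, with 24 of 54 guides below 0, and -0.24 in part B, with 37 of 55, while all gene guides gave -0.03 and -0.02. For DMSO against T0 the SOX medians were 0.05 and -0.11, and those of all gene guides -0.06 and 0.05. The SOX2 guides with the lowest values came from both parts, HGLibA_46252 from part A and HGLibB_46195 from part B.

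Partners of SOX2 and genes of the Notch pathway were read from a list of 14 genes, all tested. None passed an adjusted p under 0.05 in any comparison. For GSI against DMSO their medians lay between -0.44 for POU2F1 and 0.32 for NANOG, with 9 below 0 and a median of -0.13. The median over all genes was -0.02. At an unadjusted p under 0.05, CTNNB1, the β-catenin gene, was on the low side (p = 0.0390, exact null), against 5.06% of all genes. Its median was -0.35 ± 0.97 (SD over guides), with 4 guides below 0 and 2 above. No gene of the list was on the high side, against 4.99% of all genes. NOTCH1 and RBPJ, the receptor and the DNA-binding partner of its intracellular domain, were at 0.09 and 0.20. The Notch target genes HEY1, HEY2 and HEYL were at -0.26, -0.11 and -0.25.

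Against T0 no gene of this list had an unadjusted p under 0.05 on the low side. On the high side HEY2 did in DMSO, against 5.3% of all genes, and CHD7 and HEYL did in GSI, against 5.39%. CHD7, a chromatin remodeller, gave 1.11 ± 1.04 (SD over guides) in DMSO, with an unadjusted p = 0.0582, and 1.19 ± 0.91 in GSI, with p = 0.0103, both from the exact null. All 6 CHD7 guides were above 0 in GSI and 5 in DMSO. HEY2 gave 2.55 ± 1.86 in DMSO and 1.94 ± 1.98 in GSI, with p = 0.0179 and p = 0.0707 from the exact null, and all 6 guides were above 0 in both arms. Every tested guide was above 0 in 2.13% of all genes in DMSO and 2.02% in GSI. HEYL gave 1.32 ± 2.14 in DMSO and 1.08 ± 2.61 in GSI, with p = 0.0767 and p = 0.0242 from the exact null, and 3 of its 5 tested guides were above 0 in GSI.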

How the data were processed

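Per the labels, the authors used bcl2fastq 2.19, FastQC 0.11.5 and MAGeCK 0.5.9.2. The deposited count table holds raw read counts per sgRNA and library, from which all tests were made. The deposited normalized table holds a signal per sgRNA, equal within each library to the raw count times a constant, and was used as an alternative. Per the study's methods, the counting ran at default settings against parts A and B of the library together. No library column was left unmapped.

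Groups followed the sample titles: T0 (n = 2), DMSO (n = 3) and GSI (n = 3). In R 4.3.3, guides with a mean count of at least 10 over all libraries were tested with edgeR 4.0.16 (limma 3.58.1; glmQLFit, glmQLFTest) on the compared groups only, with median-ratio size factors and P-values adjusted by Benjamini-Hochberg over all guides. Genes with at least 4 tested guides were tested by robust rank aggregation (alpha 0.25) against its exact null, separately per side, adjusted over all genes and called under 0.05. A gene's fold change is the median over guides. Levels per library used log2 of normalised counts plus a pseudocount of 1. Floors are 3 counts. The exact null was checked against random uniform draws. The tests were also run on simulated counts with known changes, but their power to detect such changes is not reported here. P-values measure the spread between cultures or aliquots of 1 transduced pool. Alternatives were DESeq2 1.42.0, other scalings and filters, a replicate block, 1 fit of all libraries, another alpha (0.05), the mean over guides and leaving out each library.

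Named were all SOX2 guides, per comparison and side the 3 SOX genes and 3 SOX guides with the lowest p, and every SOX guide at 0 in a T0 library. Other SOX genes are given by their medians for GSI against DMSO, and other guides where a count turns on them. Members and lists were chosen with earlier results of these data known. Sites were read from GENCODE gene models on GRCh38. Guide sequences and raw reads were not analysed here.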

Additional observations from a re-analysis of the deposited data

How the results depend on the processing

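For GSI against DMSO no SOX guide and no SOX gene was called under any alternative, and the SOX2 median stayed below 0, from -1.49 to -0.26, with adjusted p from 0.87 to 0.98. Leaving out 1 library each gave -1.49 to -0.81. With a mean count of at least 50, or at least 10 counts in each T0 library, SOX2 kept under 4 guides and had no value. With library totals as scale, all genes had a median of -0.22 and SOX2 one of -1.32. The difference in level between SOX2 and the other SOX guides was -1.37 to -0.68 when 1 library was left out, -0.99 with a pseudocount of 5 and -1.13 in the deposited normalized table. The leave-outs for this difference, and the scalings and leave-out for non-overlap, were chosen after seeing the data, as were those for folds against 3 counts. Non-overlapping SOX guides numbered 12, from 11 to 13 under other scalings and 22 without GSI replicate 1, where fewer libraries ease the criterion.

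DESeq2 called 5 SOX guides for DMSO against T0 and 9 for GSI against T0, where it called 5.7% and 6.77% of all guides. Leaving out 1 library each, 0 to 6 and 0 to 16 SOX guides were called. The highest counts, without T0 replicate 1, stood beside 7.13% and 18.1% of all guides. SOX2 for GSI against T0 turned to -0.0056 with non-targeting controls as scale. With the mean over guides, SOX17 and SOX18 turned to 0.161 and 0.0862 for GSI against DMSO, SOX15 and SOX17 to 0.064 and 0.0099 for DMSO against T0, and SOX21 to 0.073 for GSI against T0. With non-targeting controls, SOX17 and SOX18 turned to 0.0255 and 0.0320 for GSI against DMSO. Leave-outs crossed 0 for GSI against DMSO in SOX4 (-1.20 to 2.41), SOX13 (-0.45 to 0.0110), SOX17 (-0.16 to 0.17), SOX18 (-0.26 to 0.17) and SOX21 (-0.50 to 0.0888). They did so for DMSO against T0 in SOX4 (-4.28 to 0.0042), SOX15 (-0.34 to 0.093) and SOX17 (-0.40 to 1.04), and for GSI against T0 in SOX4 (-3.10 to 1.14), SOX10 (-0.0731 to 1.87) and SOX21 (-1.24 to 0.78).

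The sample titles do not state whether replicate numbers pair GSI with DMSO cultures, and the main tests were unpaired. Same-numbered deviations correlated at 0.280, 0.064 and 0.121 over guides, and each culture correlated best with its own number. The levels of DMSO 1 and GSI 1 correlated at 0.828 over all guides (Spearman), against 0.639 to 0.748 between cultures of the same arm. The pairs numbered 2 and 3 were at 0.666 and 0.691, within that range. With the replicate block no SOX guide was called, and SOX17 and SOX18 turned to 0.0830 and 0.349. The SOX2 median was then -1.34, at place 56 on the low side against 149 without the block. Its unadjusted p was 0.0031 from the exact null, with an adjusted p = 0.87. Against T0 the SOX2 medians were 1.92 for DMSO and 0.81 for GSI with the block. The disagreement of the 2 T0 libraries and their guides at 0 limit all values against T0, and 2 of 6 SOX2 guides were too rare to test.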
